A study of Mus musculus with 25 samples.

Results

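The Hox genes of the lumbar dorsal root ganglia (the L3 to L5 ganglia, which hold the cell bodies of sensory neurons) were examined in male C57BL/6 mice used as a model of knee osteoarthritis. On the microarray, 33 Hox genes had a probe set of their own, among 30142 genes named by a single symbol. A member was any gene whose annotated symbol was Hoxa, Hoxb, Hoxc or Hoxd followed by a number, and the probe set with the highest mean over all 25 arrays stood for it. There were 8 members in the Hoxa cluster (chromosome 6), 9 in Hoxb (chromosome 11), 9 in Hoxc (chromosome 15) and 7 in Hoxd (chromosome 2). A further 5 Hox genes shared a probe set with another symbol, namely Hoxa7 (with Mira), Hoxa9 (with Mir196b), Hoxb4 (with Mir10a), and Hoxd3 and Hoxd4 (1 probe set between them).

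Mice were left unoperated (naive), had a sham operation, or had their right medial meniscus destabilised (DMM), a joint injury that leads to osteoarthritis. Operations were done at 10 weeks of age and tissue was taken 4, 8 or 16 weeks later, when mice were 14, 18 or 26 weeks old, with naive mice taken at the same ages. Each of the 9 groups of treatment by time held 3 arrays except sham at 8 weeks, which held 1 because the submitters' other sham arrays at that time failed their quality check. The labels do not say how many mice an array holds, which side the ganglia came from, or whether the ganglia of an animal were pooled, so p-values measure the spread between these samples, which may be partly technical. In operated mice time after surgery and age move together, and naive mice of the same ages had no surgery.

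Hox proteins are homeodomain transcription factors that give cells along the body axis their positional identity. Their genes lie in clusters, numbered by paralogue group, and in the embryo genes with low numbers are active from the head end backwards while genes with high numbers start further towards the tail. Many adult cells keep part of this code, connective tissue cells and neurons of the trunk among them. Paralogue group 10 is known for specifying lumbar identity, group 9 for the thoracic region and its boundary with the limbs, group 11 for sacral levels, and group 13 for the tail and the ends of the limbs and gut.

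Promoter windows of 4 members are shown because they are pairs of neighbouring genes, from which 1 gene of each pair was above the array's brightness limit in the ganglia and the other was not (values below). In each pair, Hoxa10 with Hoxa11 and Hoxd9 with Hoxd10, the first was above the limit. Each window runs from 250 bases before the start of the transcript to 50 bases after it, 5′ to 3′ on the gene's strand, from RefSeq's GRCm38.p6, with every CG dinucleotide in capitals. Hoxa10 lies at chr6:52240805-52241104 (minus strand, the upstream of its 2 windows), Hoxa11 at chr6:52245761-52246060 (minus strand), Hoxd9 at chr2:74697513-74697812 (plus strand) and Hoxd10 at chr2:74691641-74691940 (plus strand).
Hoxa10: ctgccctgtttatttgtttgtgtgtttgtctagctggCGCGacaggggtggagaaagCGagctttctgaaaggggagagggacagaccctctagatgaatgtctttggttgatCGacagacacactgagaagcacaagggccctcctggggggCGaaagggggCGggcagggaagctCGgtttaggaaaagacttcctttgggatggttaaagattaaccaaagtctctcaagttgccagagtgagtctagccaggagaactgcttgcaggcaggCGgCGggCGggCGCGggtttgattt
Hoxa11: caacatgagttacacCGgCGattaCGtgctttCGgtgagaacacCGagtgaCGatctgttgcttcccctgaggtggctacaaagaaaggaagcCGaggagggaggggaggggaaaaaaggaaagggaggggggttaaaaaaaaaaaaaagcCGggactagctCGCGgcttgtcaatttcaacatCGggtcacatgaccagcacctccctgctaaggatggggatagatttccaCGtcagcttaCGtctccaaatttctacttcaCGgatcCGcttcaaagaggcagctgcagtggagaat
Hoxd9: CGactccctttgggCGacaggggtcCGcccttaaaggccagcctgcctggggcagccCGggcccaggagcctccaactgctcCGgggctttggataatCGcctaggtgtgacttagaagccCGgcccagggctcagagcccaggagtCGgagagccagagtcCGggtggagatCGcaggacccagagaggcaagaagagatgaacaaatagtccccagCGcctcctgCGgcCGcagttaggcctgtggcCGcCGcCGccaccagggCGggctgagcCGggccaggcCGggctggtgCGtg
Hoxd10: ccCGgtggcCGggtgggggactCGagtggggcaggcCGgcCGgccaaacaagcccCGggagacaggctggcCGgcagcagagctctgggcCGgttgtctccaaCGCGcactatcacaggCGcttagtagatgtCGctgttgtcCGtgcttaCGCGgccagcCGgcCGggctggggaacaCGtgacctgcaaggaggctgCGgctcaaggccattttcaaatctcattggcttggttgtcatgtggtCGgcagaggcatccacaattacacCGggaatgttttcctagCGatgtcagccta
The CG dinucleotide, which reads the same on both strands, occurred 12 times in the Hoxa10 window, 15 times in Hoxa11, 20 times in Hoxd9 and 22 times in Hoxd10. The other window of Hoxa10 (chr6:52234890-52235189) held 21. The genes below the limit thus had windows about as rich in CG as those of their neighbours above it. Windows were found for 17 members in all, 10 above the limit (11 windows, median 20 CG) and 7 below it (8 windows, median 18.5 CG). Windows with 10 or more CG made up 8 of the 11 and 7 of the 8, against 43.5% of all 32851 promoter windows, whose median was 7. These are descriptions of sequence, and the arrays hold no measure of promoter state.

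The Hox clusters also hold microRNA genes of the miR-10 and miR-196 families, which are processed into short RNAs that pair with target transcripts, Hox transcripts among them. They are shown because the probe sets of Hoxb4 and Hoxa9 carry Mir10a and Mir196b as second names, so that the signals of the Hox gene and the microRNA gene cannot be separated there. The mature sequences from RefSeq (GRCm38.p6) follow, 5′ to 3′, with the seed (bases 2 to 8) in capitals.
mmu-miR-10a-5p: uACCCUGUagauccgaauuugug
mmu-miR-10b-5p: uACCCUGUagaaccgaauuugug
mmu-miR-196a-5p: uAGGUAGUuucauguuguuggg
mmu-miR-196b-5p: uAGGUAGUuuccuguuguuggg
miR-10a and miR-10b share the seed ACCCUGU, and miR-196a and miR-196b share the seed AGGUAGU. Mir10a lies at chr11:96317186-96317208 in the Hoxb cluster and Mir10b at chr2:74726074-74726096 in Hoxd. Mir196a-1 (chr11:96265187-96265208) and Mir196a-2 (chr15:102973365-102973386) give the same mature miR-196a, and Mir196b lies at chr6:52230129-52230150.

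The array (an Affymetrix design, biotin labelled per the labels) gave log2 intensities for 65956 transcript probe sets, with array medians between 4.88 and 4.97. The brightness limit was the 40th percentile of the probe set means, 4.52, and 20260 genes were above it and were tested. For comparison, 23 background probe sets had array medians of 3.31 to 3.58, and 5222 negative control probe sets had array medians of 5.06 to 5.35. Members between the brightness limit and that second range are therefore near the level of probes with no intended target. The tissue label was checked against sensory neuron markers, which averaged 15.77 to 15.96 per array, with the nociceptor sodium channel gene Scn10a at 16.33 over all arrays. Of 11 spinal cord markers, 6 were above the limit, namely Aqp4 (6.37), Olig1 (6.02), the choline transporter gene Slc5a7 (5.64), Lbx1 (5.16), Olig2 (5.06) and Gfap (4.81). The motor neuron genes Mnx1 (3.91) and Chat (4.01), the myelin gene Mog (3.91) and the interneuron genes Slc6a5 (4.18) and Pax2 (4.22) were below it. Of 7 skeletal muscle markers, 5 were above the limit, Ckm (5.88), Acta1 (5.70), Actn3 (5.68), Tnnt3 (5.21) and Myh4 (4.66), and Myh1 (4.48) and Mylpf (4.40) were below it.

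Which Hox members were above the brightness limit largely followed paralogue number. All 19 members of paralogue groups 2 to 9 were above the brightness limit, and all 9 members of groups 11 to 13 were below it. The division ran through group 10, in which Hoxa10 (6.22) and Hoxc10 (7.16) were above the limit and Hoxd10 (4.00) was below it. Group 1 was also divided, with Hoxd1 at 8.58 and Hoxb1 at 4.27. In all, 22 of the 33 members were above the limit, 6 of 8 in Hoxa, 7 of 9 in Hoxb, 6 of 9 in Hoxc and 3 of 7 in Hoxd.

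Probe sets differ in how well they bind, so these levels place a member against the array's limit and do not rank genes against each other. Means of the members above the limit ran from 4.93 to 8.68, the 50.2nd to the 84.9th percentile of all transcript probe sets. Those of the members below it ran from 3.26 to 4.27, the 0.449th to the 31.4th percentile. Of the 22 members above it, 21 exceeded the array's own 40th percentile on all 25 arrays, the exception being Hoxc5, which did so on 24. None of the 11 members below it did so on any array. These sets were defined by the means of the same values, so this is a description.

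Within the anterior groups, Hoxa2 (5.49) and Hoxb2 (5.51), which pattern the hindbrain in the embryo, and Hoxa3 (5.61) and Hoxb3 (5.97), which pattern the pharyngeal region and neck, were above the limit. In group 4, Hoxa4 was at 5.33 and Hoxc4 at 6.85. Among the groups associated with the neck, forelimb and thorax, Hoxa5 was at 7.04, Hoxb5 at 7.94, Hoxc5 at 4.93, Hoxa6 at 6.96, Hoxb6 at 7.61, Hoxc6 at 8.68 and Hoxb7 at 6.56. Every one of these was above the limit, and Hoxc5 was the member nearest to it from above.

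In group 8, whose genes act in motor and sensory neurons of the spinal levels behind the forelimb, Hoxb8 was at 6.94, Hoxc8 at 7.10 and Hoxd8 at 6.56. In group 9, Hoxb9 was at 5.90, Hoxc9, which represses limb motor fates at thoracic levels, at 7.29 and Hoxd9 at 5.42. Below the limit were Hoxa11 (3.81), Hoxc11 (3.82) and Hoxd11 (3.99), Hoxc12 (3.86) and Hoxd12 (4.03), and Hoxa13 (3.88), Hoxb13 (3.26), Hoxc13 (3.86) and Hoxd13 (3.54). Hoxb13 exceeded the median of the background probe sets on 2 arrays and Hoxd13 on 21, and the other 9 members below the limit exceeded it on all 25. A probe set below the limit shows no more than that this array did not measure the gene there.

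The shared probe sets were above the limit too, Hoxa7 with Mira at 7.90, Hoxa9 with Mir196b at 6.83, Hoxb4 with Mir10a at 6.15 and Hoxd3 with Hoxd4 at 6.08, and they entered no count of members. Just inside the limit, Hoxc5 ranged from 4.50 to 5.66 over the arrays. Just outside it, Hoxb1, a gene of the embryonic hindbrain, ranged from 4.03 to 4.46, with group means between 4.14 (DMM at 16 weeks) and 4.37 (naive at 4 weeks). These ganglia are bulk tissue, in which fewer cells of a type and less RNA per cell cannot be told apart.

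**Figure D1:**
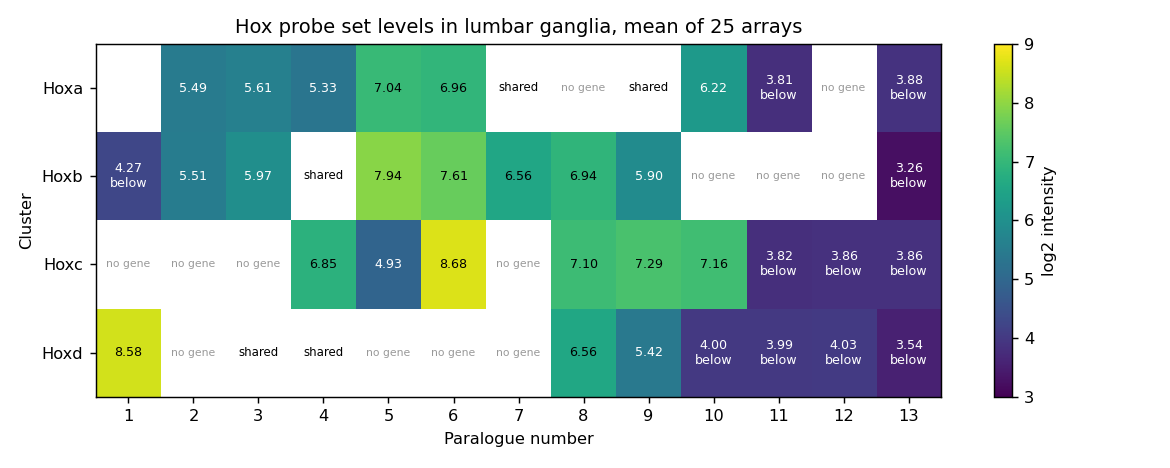
Mean log2 intensity over 25 arrays of each Hox member, with clusters as rows and paralogue number as columns. Cells marked below are members under the limit of 4.52; all members of groups 2 to 9 were above it and all of groups 11 to 13 below. White cells have no level of a member, and those marked shared have a probe set with another symbol. Colours of different cells are different probes and give no ranking.

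Across the 9 groups of treatment by time, no Hox member above the limit passed the test. By limma's moderated F test with Benjamini-Hochberg adjustment over all 20260 genes, 0 of 22 members were called, against 10.8% of all genes. At an unadjusted p under 0.05 there were 2 members, Hoxd1 and Hoxb5, against 29% of all genes. The 8 means of the groups with 3 arrays spanned a median of 0.37 (log2) over the members and 0.27 over all genes tested. The residual SD between arrays of a group was also larger, with a median of 0.18 for the members and 0.12 for all genes.

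Hoxd1, which shapes the skin projections of nociceptive neurons, had the smallest p of the members (F = 2.97, adjusted p = 0.114 in limma). At 4 weeks its log2 intensity was 8.63, 8.27 and 8.49 in naive, 8.21, 8.88 and 8.45 in sham and 8.57, 8.54 and 8.22 in DMM mice. At 8 weeks it was 8.36, 8.53 and 8.56 in naive, 8.17 on the lone sham array and 8.82, 8.79 and 8.55 in DMM mice. At 16 weeks it was 8.63, 8.77 and 8.97 in naive, 8.59, 8.48 and 8.62 in sham and 8.72, 8.88 and 8.93 in DMM mice. The DMM arrays at 16 weeks lay above all DMM arrays at 4 weeks and above all sham arrays at 16 weeks, and they overlapped the naive arrays of the same time.

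Hoxb5, a gene of enteric and vagal crest derivatives as well as of the neck region, came next (adjusted p = 0.160 in limma). Its values at 4 weeks were 7.93, 7.79 and 7.90 (naive), 7.80, 7.86 and 7.94 (sham) and 8.01, 7.82 and 7.86 (DMM). At 8 weeks they were 8.10, 8.07 and 8.25 (naive), 7.61 (sham) and 8.01, 7.41 and 7.93 (DMM), and at 16 weeks 7.89, 8.23 and 8.20 (naive), 8.08, 7.98 and 8.20 (sham) and 7.97, 7.97 and 7.66 (DMM). The naive arrays were above all DMM arrays at 8 weeks, and at 4 weeks the 3 treatments overlapped.

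Hoxa5, the Hoxa member with the highest mean, had group means between 6.90 and 7.29 and an adjusted p of 0.856 by limma's F test. Its DMM group at 16 weeks held both its highest value, 7.85, and its lowest, 6.58, with the remaining array at 7.45. That spread within 1 group covered the values of every other group.

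The clearest differences in the family were between 4 and 16 weeks. Averaged over naive, sham and DMM mice, 5 of 22 members were called, all of them higher at 16 weeks (and the same number at an unadjusted p under 0.05, against 37.1% of all genes), namely Hoxc4, Hoxd1, Hoxc6, Hoxb6 and Hoxc5. Over all genes 24.8% were called, 10% higher and 14.8% lower, so the share of called members was near that of all genes. Of the 22 members, 15 had a difference above 0, against 41.2% of all genes, and the median difference was 0.08 for the members and -0.03 for all genes.

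The middle paralogue groups, 4 to 8, held 12 of the 22 members tested. Of these 12, 10 had a difference above 0 (41.2% of all genes), with a median of 0.20, and 4 were called (24.8% of all genes). In groups 1 to 3 it was 3 of 5 members, with a median of 0.10 and Hoxd1 called, and in groups 9 and 10 it was 2 of 5, with a median of -0.05 and none called. The lowest differences were those of Hoxb9 (-0.17 ± 0.09 SE) and Hoxb2 (-0.11 ± 0.06 SE), and neither passed limma's test (adjusted p = 0.187 and 0.169). The difference between paralogue groups was not tested.

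Hoxc4, a gene of the neck and upper thoracic region, had the smallest p. At 4 weeks it was 6.63, 6.90 and 6.75 in naive, 6.54, 6.69 and 6.81 in sham and 6.72, 6.37 and 6.82 in DMM mice. At 8 weeks it was 7.06, 6.99 and 6.68 in naive, 6.94 in sham and 6.82, 6.62 and 7.03 in DMM mice. At 16 weeks it was 6.87, 6.94 and 6.85 in naive, 7.09, 7.09 and 6.91 in sham and 7.28, 6.97 and 6.90 in DMM mice. Sham and DMM arrays at 16 weeks were above all those of the same treatment at 4 weeks, while naive arrays of the 2 times overlapped. The mean rose from 6.69 to 6.99, by 0.30 ± 0.08 (SE; limma adjusted p = 0.00740), which is 1.23-fold.

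Hoxd1, whose arrays are given above, rose from 8.47 to 8.73, by 0.26 ± 0.08 (SE; limma adjusted p = 0.0249). Naive and DMM arrays at 16 weeks did not overlap those at 4 weeks, by a very narrow margin in naive mice (8.635 against 8.629). Sham arrays did overlap, with a sham array at 4 weeks (8.88) higher than all sham arrays at 16 weeks. RefSeq's start of Hoxd1 has its window at chr2:74762730-74763029 and that of Hoxc4 at chr15:103034145-103034444 (plus strand, GRCm38.p6).

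Hoxc6, a gene of brachial and thoracic levels, was at 8.31, 8.46 and 8.63 in naive, 8.39, 8.43 and 8.64 in sham and 8.73, 8.56 and 8.76 in DMM mice at 4 weeks. At 8 weeks it was at 8.78, 8.64 and 8.33 in naive, 8.82 in sham and 8.68, 8.50 and 8.88 in DMM mice. At 16 weeks it was at 8.80, 8.84 and 8.56 in naive, 8.64, 8.88 and 8.66 in sham and 9.10, 9.33 and 8.59 in DMM mice. The 2 highest values of the gene were thus both DMM arrays at 16 weeks, and the remaining DMM array lay among the 4-week values. The mean rose from 8.54 to 8.82, by 0.28 ± 0.09 (SE; limma adjusted p = 0.0290).

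Hoxb6, another gene of brachial and thoracic levels, was at 7.61, 7.36 and 7.41 in naive, 7.47, 7.05 and 7.59 in sham and 7.69, 7.54 and 7.71 in DMM mice at 4 weeks. At 8 weeks it was at 7.68, 7.70 and 7.72 in naive, 7.36 in sham and 7.59, 7.19 and 7.77 in DMM mice. At 16 weeks it was at 7.69, 7.71 and 7.61 in naive, 7.73, 7.96 and 7.65 in sham and 7.88, 8.07 and 7.51 in DMM mice. Naive and sham arrays at 16 weeks lay above those at 4 weeks, by a narrow margin in naive mice, and DMM arrays overlapped. The mean rose from 7.49 to 7.76, by 0.26 ± 0.09 (SE; limma adjusted p = 0.0300).

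Hoxc5, the member nearest the brightness limit, was at 4.66, 4.73 and 4.78 in naive, 4.97, 4.81 and 4.73 in sham and 4.57, 4.72 and 4.89 in DMM mice at 4 weeks. At 8 weeks it was at 5.14, 4.82 and 4.83 in naive, 4.96 in sham and 4.97, 4.50 and 5.36 in DMM mice. At 16 weeks it was at 5.23, 5.08 and 4.79 in naive, 4.77, 5.08 and 5.01 in sham and 5.66, 5.45 and 4.77 in DMM mice. Only the naive arrays of the 2 times did not overlap, by a narrow margin. The mean was 4.76 at 4 and 5.09 at 16 weeks, a difference of 0.33 ± 0.11 (SE; limma adjusted p = 0.0398), and the call was lost with the replicate number as a block (adjusted p = 0.0502), with no filter on dim genes (0.0516), and with the limit at the 60th percentile, which leaves the gene out. Hoxc5 was above the median of the negative control probe sets on 3 of 25 arrays, so this difference lies near the level of probes with no intended target.

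**Figure D2:**
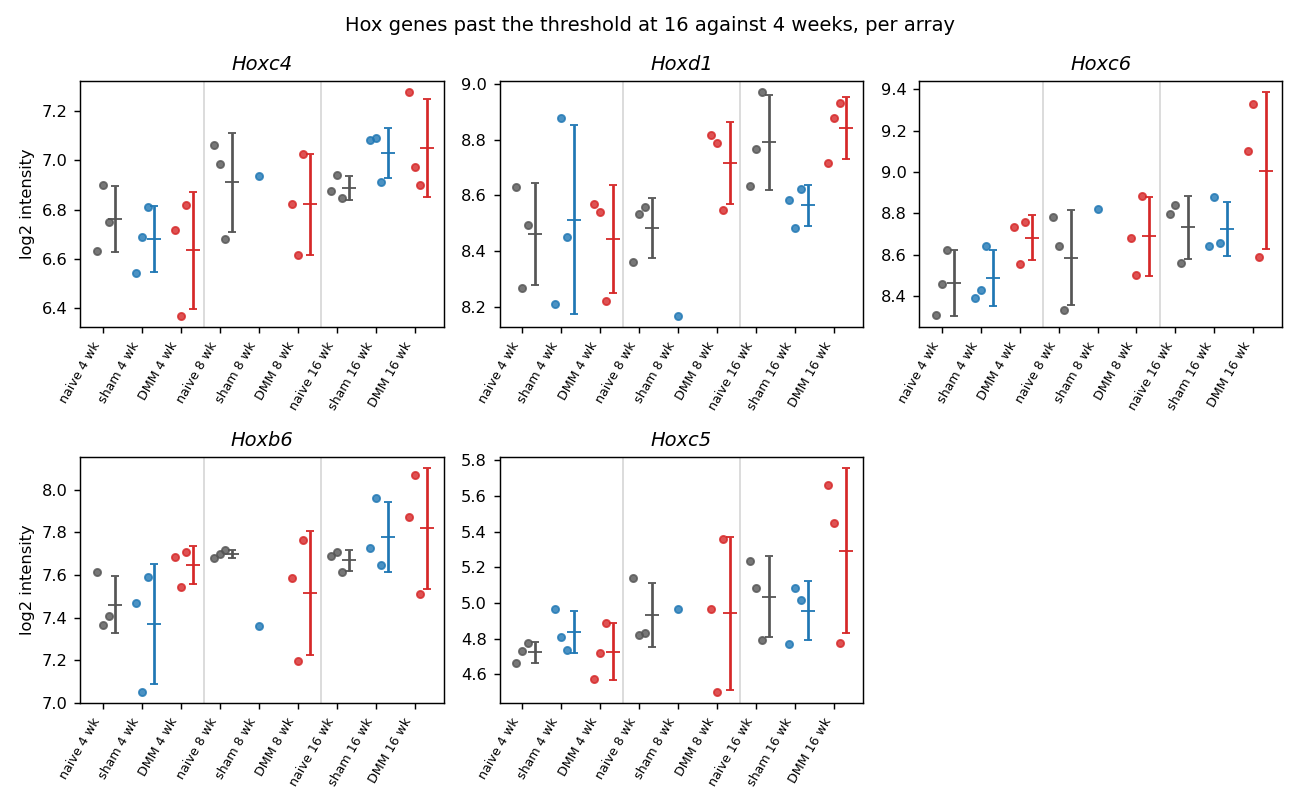
Log2 intensity of the 5 Hox members called between 16 and 4 weeks, 1 point per array, by treatment and time after surgery; the bars beside the points are the group mean ± SD (n = 3; sham at 8 weeks has 1 array and no bar). Each gene has its own axis, which does not start at 0. Values at 16 weeks lie higher on average than those at 4 weeks, and single arrays of the 2 times overlap in at least 1 treatment for each gene.

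Within each treatment taken alone, limma called 0 of 22 members between 16 and 4 weeks. In naive mice the share of all genes called was 18.8%, in sham mice 1.76% and in DMM mice 2.87%, and members at an unadjusted p under 0.05 numbered 2 (33.2% of all genes), 4 (18.5%) and 4 (18.4%). Differences of Hoxc4 were 0.13 in naive, 0.35 in sham and 0.41 in DMM mice, and those of Hoxc6 were 0.27, 0.24 and 0.32. Those of Hoxd1 were 0.33, 0.05 and 0.40, those of Hoxb6 were 0.21, 0.41 and 0.17, and those of Hoxc5 were 0.31, 0.12 and 0.57. All 5 genes had differences above 0 in all 3 treatments. They were picked by the average of these same 3 differences, so this is a description. Members whose arrays at 16 weeks were all above, or all below, those at 4 weeks numbered 7 in naive mice (38.9% of all genes), 4 above (12.8%) and 3 below (26.2%). They numbered 6 in sham mice (25.9% of all genes), all above (15.2%, with 10.7% below), and 3 in DMM mice (22.8%), all above (9.04%, with 13.8% below).

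Single arrays decided how many members passed. Leaving out DMM array 3 at 16 weeks gave 8 called members in place of 5. Leaving out array 2 of naive, sham or DMM mice at 4 weeks, naive array 1 or 2, sham array 2 or DMM array 2 at 16 weeks gave 2. Leaving out naive array 1 or 3 at 4 weeks or DMM array 1 at 16 weeks gave 3. Hoxc4 passed in all 18 of these leave-one-out fits, Hoxd1 in 14, Hoxb6 in 10, Hoxc6 in 9 and Hoxc5 in 5. The counts of called members were not set against the share of all genes called in the same fits.

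The DMM arrays at 16 weeks also differed from each other in markers of connective tissue, as did those at 8 weeks. Over 11 markers of fibroblasts and meninges, such as the collagen genes Col1a1 and Col3a1, the mean log2 level was 9.65, 10.22 and 8.11 on those 3 arrays. It was between 8.37 and 9.40 on the 9 arrays at 4 weeks and between 8.30 and 9.34 on the naive and sham arrays at 16 weeks. Of these markers 7 of 11 had a difference above 0 between the times, with a median of 0.20 and none called by limma. Slc47a1 (0.61) and Aldh1a2 (0.44) were among the 7, and Col1a1 (-0.24) and Col3a1 (-0.37) were not. All 11 were above the brightness limit. Their part in the Hox differences was not tested.

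The surgery itself was compared through DMM against naive, DMM against sham and sham against naive. No Hox member was called by limma in any of these comparisons, pooled over the times or at 1 time. Averaged over 4, 8 and 16 weeks, DMM against naive called 0 of 22 members (0.0444% of all genes), with 2 at an unadjusted p under 0.05 (7.32% of all genes). Differences ran from -0.19 to 0.20 with a median of 0.01, and 12 of 22 members were above 0 (44.1% of all genes). The 95% intervals of all members together reached from -0.38 to 0.53, and the widest was that of Hoxc10.

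The 3 members of smallest p in that comparison were Hoxb5 (-0.19 ± 0.07 SE, 95% interval -0.34 to -0.04), Hoxc6 (0.20 ± 0.09 SE, 0.01 to 0.39) and Hoxd9 (-0.11 ± 0.06 SE, -0.24 to 0.02). Their adjusted p-values in limma were 0.587, 0.659 and 0.727. The median half-width of the members' intervals was 0.17.

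Averaged over 4 and 16 weeks, DMM against sham called 0 of 22 members (0.00987% of all genes), with 1 member, Hoxc6, at an unadjusted p under 0.05, against 4.88% of all genes (0.24 ± 0.11 SE, limma adjusted p = 0.958). Hoxd9 (-0.13 ± 0.08 SE) and Hoxb6 (0.16 ± 0.11 SE) followed, and 16 of 22 members were above 0 (47.4% of all genes). Sham against naive over the same times called 0 of 22 members (0% of all genes) and none at an unadjusted p under 0.05 (5.57%), with 12 of 22 members above 0 (44.4% of all genes). Its members of smallest p were Hoxb3 (0.08 ± 0.07 SE), Hoxc8 (-0.16 ± 0.14 SE) and Hoxd1 (-0.09 ± 0.10 SE). DMM against naive and sham against naive share their naive arrays, and both comparisons with DMM share the DMM arrays.

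**Figure D3:**
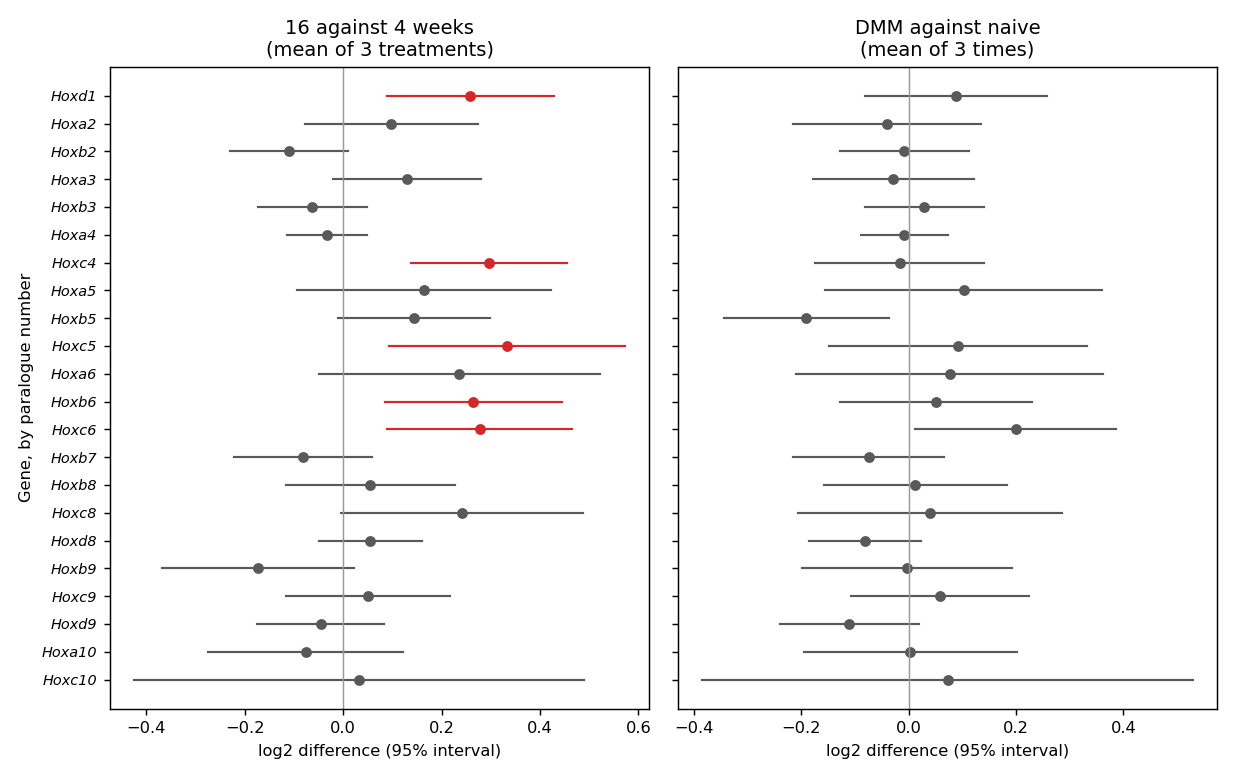
Log2 differences of the 22 Hox members above the brightness limit, ordered by paralogue number, with 95% intervals from limma; red marks members past the threshold. At left (16 against 4 weeks, mean of 3 treatments) 5 members are red, and at right (DMM against naive, mean of 3 times) none is.

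At single times, DMM against naive called 0 of 22 members by limma at 4 weeks (0.00987% of all genes), 0 at 8 weeks (0.0494%) and 0 at 16 weeks (0.0148%). Unadjusted p-values under 0.05 were those of Hoxa2 at 4 weeks (8.8% of all genes) and Hoxb5 at 8 weeks (8.49%), with none at 16 weeks (8.81%). At 4 weeks the smallest p-values belonged to Hoxa2 (-0.35 ± 0.15 SE), Hoxc6 (0.22 ± 0.16 SE) and Hoxb6 (0.19 ± 0.15 SE). At 8 weeks they belonged to Hoxb5 (-0.36 ± 0.13 SE), Hoxb7 (-0.22 ± 0.12 SE) and Hoxa4 (-0.12 ± 0.07 SE), and 5 of 22 members were above 0 (49.5% of all genes). At 16 weeks they belonged to Hoxa2 (0.29 ± 0.15 SE), Hoxb5 (-0.24 ± 0.13 SE) and Hoxc6 (0.27 ± 0.16 SE), and 17 of 22 members were above 0 (53% of all genes). The smallest adjusted p-values at the 3 times were 0.494, 0.404 and 0.589.

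DMM against sham called 0 of 22 members by limma at 4 weeks (0% of all genes) and 0 at 16 weeks (0.00494%), with none at an unadjusted p under 0.05 at either time (4.68% and 6.45% of all genes). The smallest p-values were those of Hoxb6 (0.28 ± 0.15 SE), Hoxc8 (0.36 ± 0.20 SE) and Hoxd9 (-0.17 ± 0.11 SE) at 4 weeks, and of Hoxd1 (0.28 ± 0.14 SE), Hoxc6 (0.28 ± 0.16 SE) and Hoxc5 (0.34 ± 0.20 SE) at 16 weeks. Sham against naive called 0 of 22 by limma at 4 weeks (0.331% of all genes) and 0 at 16 weeks (0.00494%), again with none at an unadjusted p under 0.05 (15.9% and 10.8%). There the smallest p-values were those of Hoxa3 (-0.25 ± 0.12 SE), Hoxc8 (-0.35 ± 0.20 SE) and Hoxa2 (-0.22 ± 0.15 SE) at 4 weeks, and of Hoxc9 (0.27 ± 0.14 SE), Hoxd1 (-0.23 ± 0.14 SE) and Hoxa3 (0.20 ± 0.12 SE) at 16 weeks. With 1 sham array at 8 weeks, no sham comparison was made at that time.

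Members whose 2 groups did not overlap were few at each time. For DMM against naive they were Hoxa2 and Hoxa3 at 4 weeks (16% of all genes), Hoxb5 at 8 weeks (10.2%) and Hoxa2 at 16 weeks (12%). For DMM against sham there was none at 4 weeks (11.6%), and Hoxb5 and Hoxd1 at 16 weeks (11%). For sham against naive they were Hoxa2 and Hoxa3 at 4 weeks (23.9%), and Hoxa3, Hoxc9 and Hoxd1 at 16 weeks (17.6%). In each of these comparisons the count stayed below the share of all genes that separated in this way.

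Hoxa2 was the member whose DMM difference changed most between the times. Its values at 4 weeks were 5.63, 5.60 and 5.64 in naive, 5.47, 5.27 and 5.48 in sham and 5.48, 5.12 and 5.23 in DMM mice. At 8 weeks they were 5.41, 5.83 and 5.52 in naive, 5.26 in sham and 5.75, 5.32 and 5.50 in DMM mice, and at 16 weeks 5.48, 5.42 and 5.36 in naive, 5.33, 5.76 and 5.30 in sham and 5.57, 6.02 and 5.54 in DMM mice. All DMM arrays were below all naive arrays at 4 weeks and above all of them at 16 weeks. The change of the difference was 0.64 ± 0.21 (SE), which missed the threshold after adjustment (limma adjusted p = 0.352). No member passed in that comparison (0 of 22, against 0.00494% of all genes), and Hoxa2 was the only member at an unadjusted p under 0.05 (10.6% of all genes). Hoxc4 (0.29 ± 0.18 SE) and Hoxa3 (0.26 ± 0.18 SE) followed. The same change for sham against naive, added after the data were seen, called 0 of 22 members by limma (2.09% of all genes), with Hoxa3 at an unadjusted p under 0.05 (20.2%).

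Hoxc10, the marker gene of lumbar identity, varied more between arrays of the same group than any other member. This gene was singled out after its values were seen. At 4 weeks it was at 6.75, 7.84 and 7.33 in naive, 7.16, 6.36 and 7.25 in sham and 7.70, 6.72 and 7.21 in DMM mice. At 8 weeks it was at 7.51, 7.69 and 6.54 in naive, 7.22 in sham and 6.67, 6.94 and 7.58 in DMM mice. At 16 weeks it was at 6.61, 6.99 and 6.88 in naive, 6.74, 7.81 and 7.60 in sham and 7.86, 7.36 and 6.75 in DMM mice. High and low arrays occurred in nearly every group, and the span from 6.36 to 7.86 is 2.83-fold.

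Its residual SD of 0.51 was at the 99.3rd percentile of the genes tested. Hoxa6 followed at 0.31 (96.4th percentile), Hoxa5 at 0.28 (94.6th), Hoxc8 at 0.27 (93.7th) and Hoxc5 at 0.26 (93.1st). Hoxa4 had the lowest, 0.08 (15.6th percentile). Members of 1 cluster thus differed widely in spread, as Hoxa4, Hoxa5 and Hoxa6 show. Their levels differed too, with Hoxa4 (5.33) near the negative control medians of 5.06 to 5.35 and Hoxa5 (7.04) and Hoxa6 (6.96) above them. The part of level in the spread was not tested. For Hoxc10 the 95% interval of the difference between 16 and 4 weeks (0.03 ± 0.22 SE) ran from -0.42 to 0.49, wider than that of any other member.

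**Figure D4:**
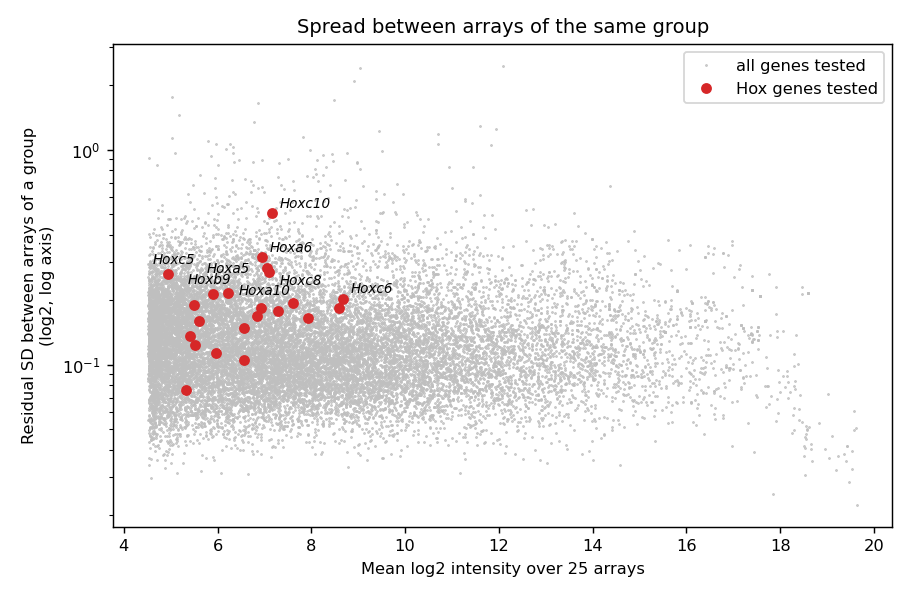
Residual SD between arrays of the same group (log2, log axis) against the mean log2 intensity over 25 arrays, for the 20260 genes tested (grey) and the 22 Hox members among them (red). Members with a residual SD above 0.20 are named; Hoxc10 lies highest at 0.51.

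Most members of paralogue groups 8 to 10 varied together with Hoxc10 from array to array. Each array's deviation from its group mean was correlated with that of Hoxc10 over 24 arrays (the lone sham array left out), with arrays permuted within groups, for 25 Hox probe sets, and p-values were adjusted over these 25. Hoxa10 had r = 0.88 and rho = 0.83 (permutation p = 6e-05 and 0.00024; adjusted 0.00050 and 0.00175), and r was 0.87 without the 2 arrays farthest from the median of Hoxc10. Within the arrays at 4, 8 and 16 weeks its r was 0.79, 0.89 and 0.98.

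Hoxc9 had r = 0.80 and rho = 0.82 (permutation p = 3e-05 and 0.00011; adjusted 0.000375 and 0.00137), and 0.82 without the 2 arrays. Hoxb9 had r = 0.79 and rho = 0.81 (permutation p = 0.00058 and 0.00028; adjusted 0.00267 and 0.00175), and 0.80 without them. Hoxb8 had r = 0.78 and Hoxc8 r = 0.70 (adjusted permutation p = 0.00267 and 0.00982). The shared probe set of Hoxa9 and Mir196b came closest, with r = 0.93 and rho = 0.92 (permutation p = 1e-05 and 3e-05, the first being the smallest that the 100000 resamples can give; adjusted 0.00025 and 0.00075). All of these belong to paralogue groups 8 to 10 and lie in the Hoxa, Hoxb and Hoxc clusters.

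Correlations of the Hoxd probe sets with Hoxc10 were near 0 or negative. Hoxd8 had r = -0.15 and Hoxd9 r = 0.04, and neither passed (adjusted permutation p = 0.501 and 0.869); for Hoxd8 r was -0.48, 0.95 and -0.24 within 4, 8 and 16 weeks. The shared probe set of Hoxd3 and Hoxd4 ran opposite to Hoxc10, with r = -0.77 and rho = -0.75 (permutation p = 0.00027 and 0.00058; adjusted 0.00169 and 0.00290), and r = -0.70 without the 2 arrays. Hoxd1 had r = -0.54 and rho = -0.50, and it passed by r (adjusted permutation p = 0.0396) but not by rho (0.0648). Hoxc4 (r = 0.64), Hoxc6 (0.62) and Hoxa6 (0.57) also passed by r, which made 11 of 25 by r and 9 of 25 by rho.

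Against the background of all genes, a correlation with Hoxc10 of at least 0.7 was found for 5 of 21 other members and for 0.977% of the 20259 other genes tested. At 0.5 or more it was 9 of 21 members and 6.16% of genes. These genes were not matched to the members for spread between arrays. The median residual SD was 0.18 for the members and 0.12 for all genes, and the part of spread in these shares was not tested. Hoxa10 ranked 2 among all 20259 genes, Hoxc9 ranked 42, Hoxb9 ranked 58 and Hoxb8 ranked 62.

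**Figure D5:**
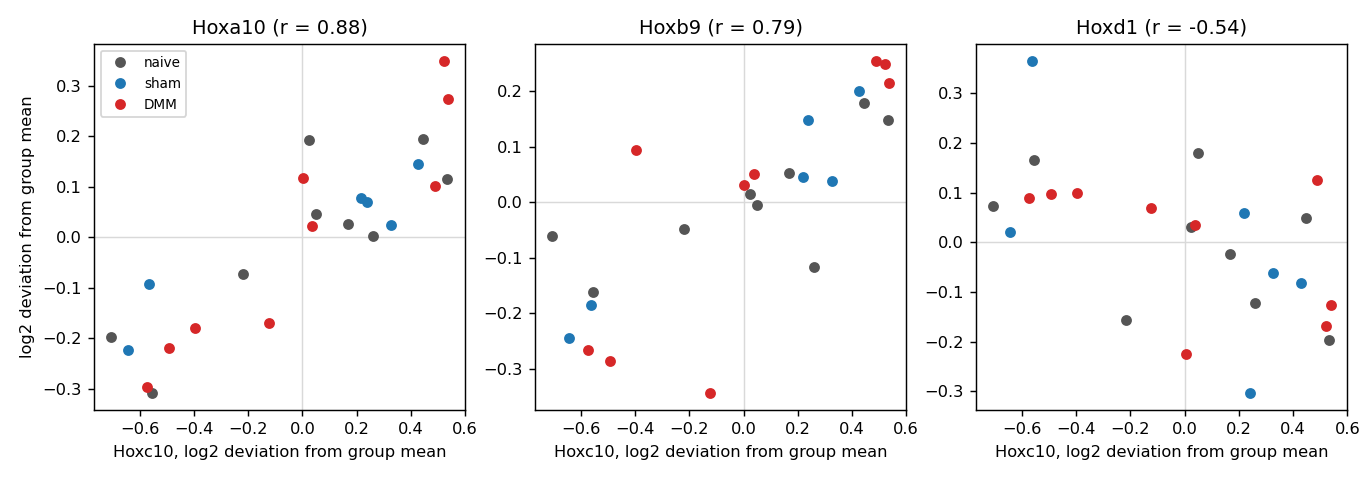
Deviation of each of 24 arrays from its group mean, for Hoxc10 (horizontal, log2) against Hoxa10, Hoxb9 and Hoxd1 (vertical, log2), coloured by treatment. Hoxa10 (r = 0.88) and Hoxb9 (r = 0.79) run with Hoxc10 and Hoxd1 (r = -0.54) against it, and arrays of all 3 treatments are found at both ends.

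The deviations of the 22 members were also set against the mean level of 8 lists of cell type markers, 176 correlations in all, adjusted together. Of these 1 passed, Hoxc6 with the fibroblast and meningeal list (r = 0.84, rho = 0.79, permutation p = 0.00024 and 0.00026, adjusted 0.0422 and 0.0458), with r = 0.70 without the 2 arrays farthest from the median and r = 0.46, 0.72 and 0.98 within 4, 8 and 16 weeks. For that list the median r over the members was 0.56 and the highest was that of Hoxa6 (0.91; adjusted permutation p = 0.0814). Median r was 0.50 for the Schwann cell list, 0.45 for the endothelial list and -0.39 for the sensory neuron list. It was 0.04 for satellite glia, -0.02 for macrophages, -0.02 for skeletal muscle and -0.12 for spinal cord. These lists share arrays and tissue with the members, and the part of any cell type in the Hox levels was not tested.

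Genes of the class that holds the Hox partners, and genes linked to the Hox clusters or body axis patterning, were measured through 5 further lists. The TALE class includes partners that bind DNA together with Hox proteins. Of 10 TALE-class genes tested, Tgif1 and Tgif2 among them, limma called 3 between 16 and 4 weeks (24.8% of all genes). Pknox2 rose by 0.38 ± 0.06 (SE, adjusted p = 0.000349) and Meis1 rose by 0.14 ± 0.04 (SE, 0.0197), while Pbx2 fell by 0.18 ± 0.04 (SE, 0.00287). The partners Pbx3 (7.41), Meis2 (7.32) and Meis3 (7.58) did not pass.

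Polycomb proteins keep Hox genes silent outside their domain, and of 15 tested limma called 4, near the 24.8% of all genes. Phc3 (0.18 ± 0.05 SE, adjusted p = 0.00715) and Pcgf2 (0.15 ± 0.05 SE, 0.0262) were higher at 16 weeks, and Eed (-0.17 ± 0.05 SE, 0.0174) and Cbx8 (-0.12 ± 0.04 SE, 0.0266) were lower. The methyltransferase gene Ezh2 did not pass (-0.06 ± 0.03 SE). Of 10 Trithorax group and H3K27 demethylase genes, which hold Hox genes active, limma called 3, also near that share. The methyltransferase genes Kmt2a (0.31 ± 0.07 SE, adjusted p = 0.00516) and Kmt2c (0.30 ± 0.05 SE, 0.000135) were higher at 16 weeks and Ash2l (-0.35 ± 0.08 SE, 0.00271) was lower. In both lists called genes lay on both sides of 0.

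Of 13 axial inputs (genes listed for body axis patterning, Mnx1 and Aldh1a2 also being in marker lists), 7 were above the brightness limit. Limma called 3 of these between 16 and 4 weeks (24.8% of all genes), the signal Gdf11 (-0.39 ± 0.07 SE, adjusted p = 0.000627), Cdx2 (-0.13 ± 0.04 SE, 0.0116) and the retinoic acid receptor gene Rarg (0.12 ± 0.04 SE, 0.0459). Cdx2, at 4.73, is close to the limit and below the negative control medians of 5.06 to 5.35. Of the noncoding transcripts of the Hox clusters, 4 of 6 measured were above the limit and none was called, Hotair (4.64), Hoxb3os (5.85), Mir196a-1 (4.95) and Mir196a-2 (5.19), with Mir10b (4.37) and Mir615 (3.82) below it. Array probes for microRNA genes may read the precursor rather than the mature RNA. By the F test over 9 groups (10.8% of all genes), limma called Kmt2c (adjusted p = 0.00293), Pknox2 (0.0263), Gdf11 (0.0266), Phc3 (0.0270), Kmt2a (0.0395) and Pbx2 (0.0484).

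For DMM against naive averaged over the times, limma called none of the genes of these 5 lists (0.0444% of all genes). At an unadjusted p under 0.05 (7.32% of all genes) there were 2 TALE-class genes, 1 Polycomb gene, 1 Trithorax gene and none of the axial inputs. There was also 1 noncoding transcript, Hotair (-0.14, limma adjusted p = 0.577).

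Among the cell type markers, limma called 3 of 11 sensory neuron, 3 of 6 satellite glia, 2 of 7 Schwann cell, 0 of 11 fibroblast and meningeal, 4 of 10 macrophage, 1 of 8 endothelial, 0 of 6 spinal cord and 0 of 5 skeletal muscle genes between 16 and 4 weeks. The share of all genes called was 24.8%. Of satellite glia genes, Fabp7 (-0.35 ± 0.06 SE), Kcnj10 (-0.52 ± 0.09 SE) and Apoe (-0.14 ± 0.04 SE) were lower at 16 weeks. Of Schwann cell genes, Pmp2 was lower (-1.17 ± 0.25 SE) and Egr2 higher (0.29 ± 0.07 SE). Of macrophage genes, Csf1r (-0.18 ± 0.06 SE), Cx3cr1 (-0.33 ± 0.09 SE) and C1qa (-0.24 ± 0.08 SE) were lower and Cd163 higher (0.17 ± 0.05 SE). Of sensory neuron genes, Tubb3 (-0.19 ± 0.04 SE) and Prph (-0.16 ± 0.04 SE) were lower and Snap25 higher (0.08 ± 0.03 SE), and the endothelial gene called was Emcn (0.28 ± 0.09 SE). For DMM against naive (0.0444% of all genes) the only marker called was Fabp7 (0.63).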

How the data were processed

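The deposited table holds log2 intensities, 1 per probe set and array, as the authors processed them; the log2 scale was read from the values, and the normalization, summary method, software and genome build are not given in the sources used. Names came from GEO's platform annotation, which can be old, with 827 symbols updated by Entrez identifier. Members and lists were chosen with earlier results of these data known. Genes with a mean above the 40th percentile (4.52) entered a single linear model of limma 3.58.1 (R 4.3.3), which estimates a mean for each group from all 25 arrays (16 residual degrees of freedom). Its eBayes statistics were tested two-sided in 12 comparisons and an F test, with Benjamini-Hochberg adjustment over 20260 genes and a threshold of 0.05. Scripts were tested on simulated data. Comparisons within 1 treatment and the change of the sham difference were added after the data were seen.

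Genes named with values were members past the threshold, the 6 of smallest F test p, the brightest of each cluster, those beside the limit, and in each comparison the 3 of smallest p; from other lists, up to 4 of smallest F test p and those past the threshold, while others were chosen after their values were seen. Arrays with the same replicate number did not deviate together in most pairs, though some did (21 pairs, r from -0.36 to 0.32, 8 above 0.1). Numbers were not treated as pairs in the main model and entered as a block in an alternative. The files used here give no scan date or batch. Precision is limited by how many arrays a group has, since arrays have no depth.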

Additional observations from a re-analysis of the deposited data

Results flagged for a closer look

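Hoxa2 was flagged because the difference between DMM and naive mice had opposite signs at the 2 times, with no overlap of arrays at either. It was -0.35 at 4 weeks and 0.29 at 16 weeks, at a level close to that of the negative control probe sets. Seen the other way, Hoxa2 at 16 against 4 weeks differed by 0.44 in DMM mice and by -0.20 in naive mice. The change of the difference, 0.64 ± 0.21 (SE), did not pass in limma (adjusted p = 0.352).

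Hoxa3 was flagged in the same way for sham mice. Sham against naive differed by -0.25 at 4 weeks and 0.20 at 16 weeks, and 16 against 4 weeks differed by 0.34 in sham and by -0.11 in naive mice. The change, 0.45 ± 0.18 (SE), did not pass in limma (adjusted p = 0.164), and no member passed in that comparison (0 of 22, against 2.09% of all genes). At an unadjusted p under 0.05 there was 1 member, against 20.2% of all genes. Groups of 3 arrays were not screened for single outlying arrays.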

How the results depend on the processing

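Alternatives were quantile normalization, cyclic loess, no filter on dim genes, a limit at the 60th percentile, the mean of a gene's probe sets, a robust trended eBayes, the replicate number as a block, only the groups compared, and each array left out. The count of called members stayed at 0 for all comparisons of DMM, sham and naive mice in every alternative run. For 16 against 4 weeks it was 4 to 5 members in the alternatives that kept all treatments and left out no replicate, 4 with the replicate block, 4 with the limit at the 60th percentile, which tests fewer members and not Hoxc5, and 2 to 8 when 1 array was left out. It was 0 in naive mice only, in sham mice only and in DMM mice only, which leaves 3 arrays a time. The F test count was 0 to 1 when 1 array was left out, with Hoxd1 in the F test at an adjusted p of 0.0344 without the second sham array at 4 weeks, and Hoxc6 in the F test at 0.0324 without DMM array 3 at 16 weeks. The replicate block gave 0 called members in the F test and changed no call but that of Hoxc5. No difference of a named member changed its sign after being called. The number of arrays, 3 a group, limits what could be seen, and intervals for 3 against 3 arrays had a median half-width of 0.30 over the members.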

Other observations

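The genes whose deviations ran closest to those of Hoxc10 over the 24 arrays were looked up after the values were seen, and they are given as descriptions with no test. Beside Hoxa10 (r = 0.88), they were Caln1 (0.89), C1ql3 (0.87), Slc38a1 (0.87), Adgrl2 (0.87), the GABA receptor subunit gene Gabrg1 (0.87), Pcdh11x (0.87) and Pvalb (0.86), the parvalbumin gene known from proprioceptive neurons. Those running most opposite were the synaptic vesicle gene Syt1 (-0.91), the nicotinic receptor subunit gene Chrnb4 (-0.90) and the potassium channel gene Kcnh6 (-0.90).

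Extreme values of the Hox members gathered on a few arrays. The second DMM array at 16 weeks was the highest of all 25 for 6 of 22 members (8.81% of all genes) and the first for 4 (1.86%). The second DMM array at 8 weeks was the lowest for 6 members (7.27% of all genes) and the second sham array at 4 weeks for 4 (3.17%).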
